A study of Mus musculus with 8 samples.

Results

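Lysosomal hydrolases and lysosomal membrane proteins, 40 mouse genes in all, were followed across the arrays of a Gtf2i knock-in experiment. The genes were listed by symbol and taken where the transcript accession of a probe maps to that symbol. The array reads 45616 genes and unnamed transcripts, and all 40 lysosomal genes were on it, through 56 probes. Of these genes, 37 could be tested among 25353 tested genes and unnamed transcripts. The genes comprised 11 proteases, 8 glycosidases of glycoproteins, glycogen and glycolipids, 5 glycosaminoglycan enzymes, 7 lipid enzymes or lipid-handling proteins, 7 membrane proteins and 2 regulators.

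The cells were TEC71, an immortalized mouse line of medullary thymic epithelial origin, grown as a monolayer, and total RNA was measured on single-colour Agilent SurePrint G3 mouse arrays. Knock-in clone 1, with 3 arrays, and clone 3, with 2, carried the Gtf2i T1211A mutation, and the knock-in control, with 3, had been given Cas9 nickase with 1 guide RNA. Gtf2i encodes TFII-I, a general transcription factor. Each knock-in group was 1 clone, the labels do not say whether arrays of a group came from separate cultures, and the p-values below therefore measure the spread between these arrays, which may be technical.

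Lysosomes are acidic, membrane-bound organelles in which soluble hydrolases break down proteins, glycans and lipids delivered by endocytosis and autophagy. The membrane carries heavily glycosylated proteins, channels and transporters, and a proton pump keeps the lumen acidic. TFEB and related factors bind an E-box named the CLEAR element near the start of many lysosomal genes. In thymic epithelium, lysosomal proteases take part in preparing the peptides that are shown to developing T cells on MHC class II molecules.

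A level below is a log2 signal minus the 75th percentile on its array, so that differences between groups are log2 fold changes. A gene was read through its brightest probe, and levels of different probes are not comparable with each other. The 75th percentile signal ran from 268 to 377, the share of probes well above background from 55.3% to 59.3%, and no spot was saturated. The brightest spike-in control read 2797 on the first clone 1 array, against 17164 to 30390 on the other arrays. Correlations over the tested genes were 0.993 to 0.995 between arrays of a group and 0.964 to 0.970 between knock-in and control arrays. The edited gene had a level of 3.96 ± 0.07 in clone 1, of 3.82 ± 0.03 in clone 3 and of 4.41 ± 0.05 in the control (means ± SD over 3, 2 and 3 arrays). The Gtf2i log2 fold changes were -0.46 (limma adjusted p = 0.00754) and -0.59 (0.00421). Where its probe lies relative to the point mutation was not examined.

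More lysosomal genes were higher than lower in both knock-in clones. In clone 1, 23 of the 37 tested genes were higher, 2 were lower and 12 did not pass the test (limma, Benjamini-Hochberg adjusted p under 0.05 over all 25353). Over all tested genes 31.1% passed in clone 1, 14.7% higher and 16.5% lower. In clone 3, 15 were higher, 2 were lower and 20 did not pass, against 30.2% over all tested genes, 13.3% higher and 17% lower. The median log2 fold change of the lysosomal genes was 0.43 in clone 1 and 0.31 in clone 3, beside -0.05 and -0.04 over all tested genes. Both comparisons used the same 3 control arrays. The 25353 include unnamed transcripts, while every lysosomal gene has a symbol. A fit of the 14719 tested genes with a symbol called 5966 in clone 1 and 5438 in clone 3. Of the lysosomal genes it called 23 up and 2 down for clone 1, and 16 up and 4 down for clone 3. Lysosomal probes were also brighter, with a median control level of 3.40 beside -0.54. Shares over all tested genes, here and below, are thus not matched for naming or brightness.

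The genes higher in both clones numbered 15: Ctsa, Ctsc, Ctsd, Ctsf, Ctsz, Lgmn, Hexa, Neu1, Man2b1, Manba, Asah1, Npc2, Arsa, Scarb2 and Cd68. Ctsc is among them although its control arrays were all at background. Lipa and Mcoln1 were lower in both. Together these made 45.9% of the tested lysosomal genes, where 23.5% of all tested genes passed in both clones in the same direction (11.3% higher, 12.2% lower). On 19 lysosomal genes every knock-in array lay above every control array, and on 2 every knock-in array lay below, against 17.4% and 20.9% of all tested genes. Either pattern thus held for 21 lysosomal genes, and for 38.4% of all tested genes. Leaving out the second clone 3 array leaves 1 array in that group. Ctsd, Ctsz, Lgmn, Neu1, Man2b1, Arsa and Scarb2 then did not pass in both clones. Fewer of all tested genes passed in clone 3 there as well.

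Position on the slide ran partly with the groups. The first row of the slide held the 3 control arrays and the first clone 1 array, and the second row held the other 2 clone 1 arrays and both clone 3 arrays. With row as a block, Ctsa, Ctsf and Manba passed in both clones. So did Ctsc, which entered the test through the knock-in arrays alone. All 17 genes kept their direction. Of the 37 lysosomal genes 12 passed in clone 1 and 4 in clone 3. Of all 25353 tested genes 4349 passed in clone 1 and 2068 in clone 3. In that fit the clone 3 value rests on how clone 1 differed between rows. Within the first row, which sets 1 clone 1 array against the 3 controls, the 15 genes called higher had log2 fold changes from 0.40 to 5.15. The highest is that of Ctsc, whose control arrays were at background. The clone 1 array of that row is the one with the low spike-in reading, 2797. Lipa and Mcoln1 had -0.64 and -0.44 there. These arrays are among those that made the calls, so this is no independent check.

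**Figure D1:**
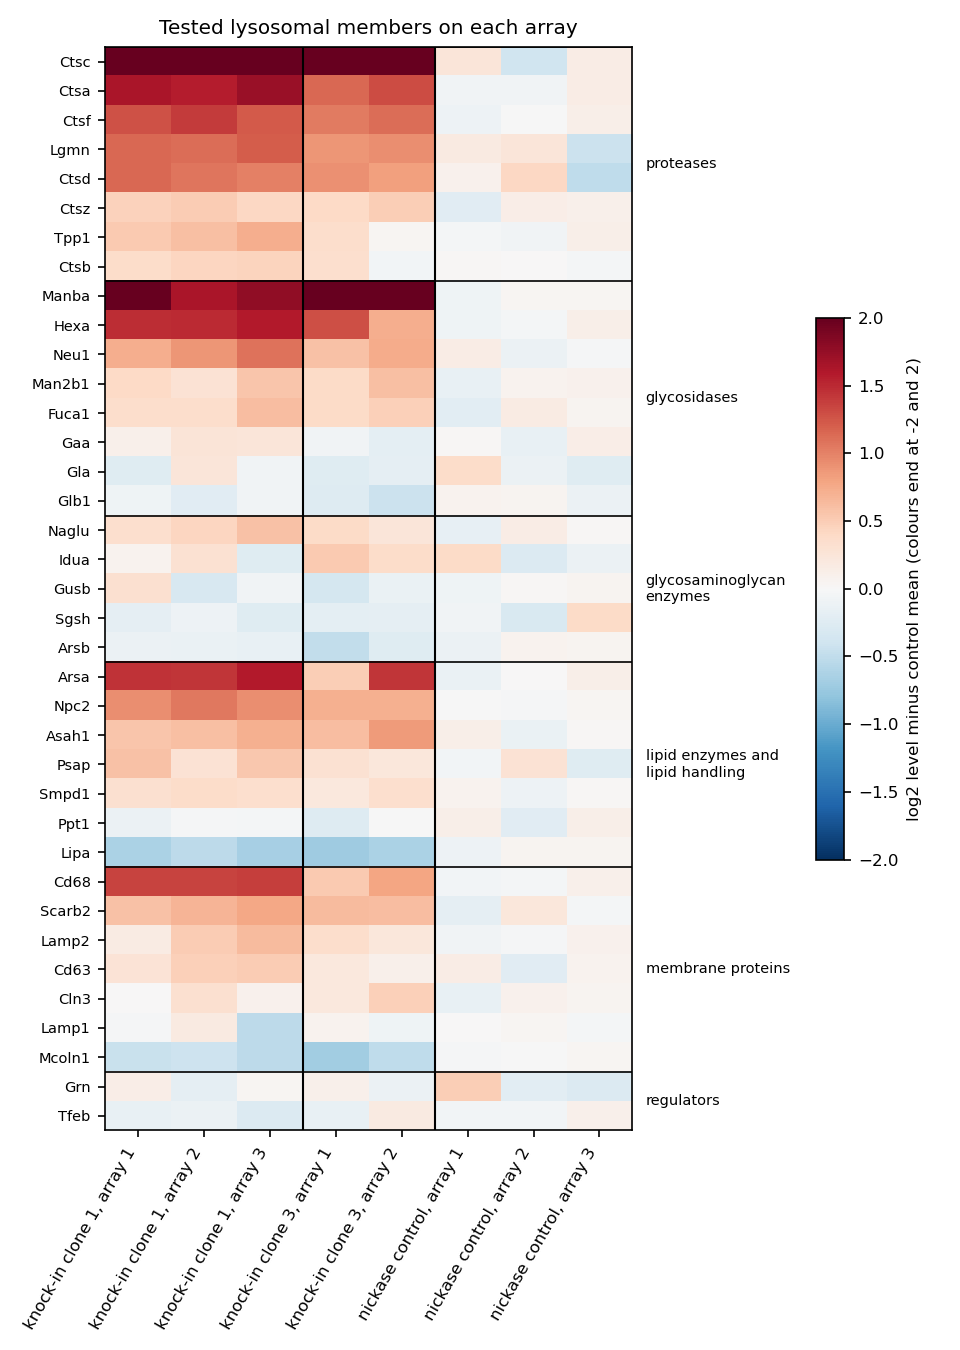
Level of the 37 tested lysosomal genes on each of the 8 arrays as the log2 difference from the control mean, with genes grouped by role and arrays by group (clone 1, clone 3, control). Most proteases and many glycosidases are red on the knock-in arrays, Lipa and Mcoln1 are blue there, and most glycosaminoglycan enzymes are pale.

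The promoters of 6 of these genes are shown because they span the responses seen. Ctsa, Ctsd and Manba were higher in both clones and differ in motif content. Ctsc had the largest fitted difference, with its control arrays at background. Mcoln1, a channel gene, was lower, and Lamp1, the gene of an abundant membrane protein, did not pass. Each stretch runs 5′ to 3′ from 250 bases before to 20 bases after the transcription start in RefSeq, build GRCm38.p6. Capitals mark CACGTG, the E-box core that TFEB reads in the CLEAR element.
Ctsa (chr2:164833523-164833792, plus strand): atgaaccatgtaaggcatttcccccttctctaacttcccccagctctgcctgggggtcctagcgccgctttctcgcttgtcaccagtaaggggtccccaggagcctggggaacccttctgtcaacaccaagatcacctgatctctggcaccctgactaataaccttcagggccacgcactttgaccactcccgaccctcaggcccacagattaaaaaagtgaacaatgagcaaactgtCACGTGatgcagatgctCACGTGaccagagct
Ctsd (chr7:142387808-142388077, minus strand): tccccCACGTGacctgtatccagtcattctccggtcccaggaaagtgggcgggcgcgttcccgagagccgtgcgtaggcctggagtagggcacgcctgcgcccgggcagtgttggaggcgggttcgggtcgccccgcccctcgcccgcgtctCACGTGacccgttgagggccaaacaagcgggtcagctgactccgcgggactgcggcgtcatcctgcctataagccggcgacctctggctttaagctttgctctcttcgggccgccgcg
Lamp1 (chr8:13158911-13159180, plus strand): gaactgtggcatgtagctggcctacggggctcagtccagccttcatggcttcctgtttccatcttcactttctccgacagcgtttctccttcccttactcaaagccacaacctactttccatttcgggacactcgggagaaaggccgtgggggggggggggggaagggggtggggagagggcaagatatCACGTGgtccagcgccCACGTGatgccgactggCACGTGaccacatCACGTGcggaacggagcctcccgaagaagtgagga
Mcoln1 (chr8:3500269-3500538, plus strand): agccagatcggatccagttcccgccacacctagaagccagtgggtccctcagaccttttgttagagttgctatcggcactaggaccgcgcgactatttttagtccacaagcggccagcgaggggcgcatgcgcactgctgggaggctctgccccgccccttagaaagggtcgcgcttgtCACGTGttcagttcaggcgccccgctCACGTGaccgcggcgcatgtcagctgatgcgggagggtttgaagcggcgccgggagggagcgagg
Ctsc (chr7:88277835-88278104, plus strand): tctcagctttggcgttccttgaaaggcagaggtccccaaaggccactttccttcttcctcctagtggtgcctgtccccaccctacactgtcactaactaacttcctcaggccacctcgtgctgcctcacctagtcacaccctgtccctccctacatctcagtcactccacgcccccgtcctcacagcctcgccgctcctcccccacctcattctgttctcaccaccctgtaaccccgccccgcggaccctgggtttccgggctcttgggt
Manba (chr3:135485361-135485630, plus strand): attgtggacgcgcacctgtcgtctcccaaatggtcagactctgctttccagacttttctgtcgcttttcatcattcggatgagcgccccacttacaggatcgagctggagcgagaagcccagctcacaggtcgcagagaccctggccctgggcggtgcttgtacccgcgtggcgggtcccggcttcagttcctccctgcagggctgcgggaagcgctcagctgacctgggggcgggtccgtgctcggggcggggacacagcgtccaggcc

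CACGTG reads the same on both strands, and the search covered 300 bases, 250 before and 50 after the start. The core was found in 13 of the 37 lysosomal genes that had a promoter in RefSeq (35.1%), against 8.09% of 27025 genes with a promoter and 11% of 11717 such genes that were tested here. The longer form TCACGTGA, which contains the core, was found in 5 of them (Ctsa, Ctsd, Gla, Cln3 and Mcoln1; 13.5%), against 1.12% and 1.95%. The core starts at -12 and 6 relative to the start of Ctsa, at -245 and -98 for Ctsd, and at -71 and -45 for Mcoln1. Lamp1 held 4 copies, at -61, -45, -28 and -15, while the windows of Ctsc and Manba held none.

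Set against the calls, the core was present in 5 of 14 genes with a promoter that were higher in both clones (Ctsa, Ctsd, Ctsf, Lgmn and Arsa). It was present in 1 of 2 that were lower (Mcoln1), in 1 of 7 that passed in clone 1 alone (Naglu) and in 6 of 12 that passed in neither clone (Gaa, Gla, Glb1, Sgsh, Lamp1 and Cln3). A match is only a stretch of letters, and binding was not measured here. Promoters of Ctsb, Ctse and Asah1 were not analysed.

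Among the roles, proteases had the largest share of calls. All 8 tested were higher in clone 1 and 6 were higher in both clones, beside 14.7% and 11.3% of all tested genes. Their median log2 fold change was 1.11 in clone 1 and 0.89 in clone 3. Roles held at most 8 tested genes, so such shares are coarse. Ctsc encodes cathepsin C, a dipeptidyl peptidase that activates the serine proteases of immune cell granules. It read -1.73, -1.89 and -1.42 in clone 1 and -1.29 and -1.67 in clone 3, against -6.64, -7.29 and -6.73 in the control. It was well above background on all 5 knock-in arrays and on none of the control arrays, so only a bound on the fold can be given. Ctsc entered the test through the knock-in arrays alone, its p-values compare them with background readings, and a filter on all 8 arrays leaves it out. Cathepsin C signal was at least 9.85-fold higher in clone 1 (limma adjusted p = 7.08e-07) and at least 11.3-fold higher in clone 3 (adjusted p = 1.48e-06). For this bound each control array was set to the higher of its own value and the lowest signal among probes well above background on that array.

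Ctsa encodes cathepsin A, a carboxypeptidase that also holds β-galactosidase and neuraminidase in a stable complex. It read 6.34, 6.28 and 6.44 in clone 1 and 5.85 and 6.0 in clone 3, against 4.64, 4.63 and 4.85 in the control. Every knock-in array was above every control array, and clone 3 lay between the other groups. Ctsa was 3.13-fold higher in clone 1 (log2 1.65, SE 0.11, limma adjusted p = 1.58e-05) and 2.34-fold higher in clone 3 (adjusted p = 0.000206). Its promoter, printed above, carries CACGTG on each side of the start.

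Ctsf, the gene of the cysteine protease cathepsin F, read -1.51, -1.38 and -1.54 in clone 1 and -1.74 and -1.66 in clone 3, against -2.89, -2.79 and -2.66 in the control. The groups did not overlap, and the log2 fold changes were 1.30 (SE 0.11, limma adjusted p = 4.89e-05) and 1.08 (SE 0.12, adjusted p = 0.000321). Lgmn encodes legumain, an asparaginyl endopeptidase that also processes other cathepsins. Its level was 4.78, 4.75 and 4.84 in clone 1 and 4.53 and 4.57 in clone 3, against 3.82, 3.88 and 3.21 in the control. The third control array was the lowest, and no knock-in array reached down to the controls. Legumain rose by 1.15 in clone 1 (SE 0.18, limma adjusted p = 0.00143) and by 0.91 in clone 3 (adjusted p = 0.00871).

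Ctsd, the gene of the major lysosomal aspartic protease cathepsin D, read 5.38, 5.30 and 5.24 in clone 1 and 5.15 and 5.06 in clone 3, against 4.33, 4.66 and 3.73 in the control. The controls were spread over nearly a log2 unit, with the third array again lowest, yet all stayed below the knock-in arrays. The differences were 1.07 in clone 1 (SE 0.21, limma adjusted p = 0.00528) and 0.87 in clone 3 (SE 0.24, adjusted p = 0.0242). Ctsz, a carboxypeptidase, rose by 0.46 and 0.45. Tpp1, which removes tripeptides from protein ends, and Ctsb, a cysteine protease, passed in clone 1 alone, at 0.62 and 0.41, with 0.20 and 0.14 in clone 3.

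The remaining proteases were not tested. Ctse and Ctsk, the cathepsin of osteoclasts, were not well above background on any array. Ctso read -4.15, -4.46 and -4.92 in clone 1 and -4.29 and -5.71 in clone 3, against -4.34, -3.90 and -3.95 in the control. These values lie near the detection limit, being well above background on 1 of 3 clone 1 arrays, 1 of 2 clone 3 arrays and 2 of 3 control arrays, and they overlap between groups.

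**Figure D2:**
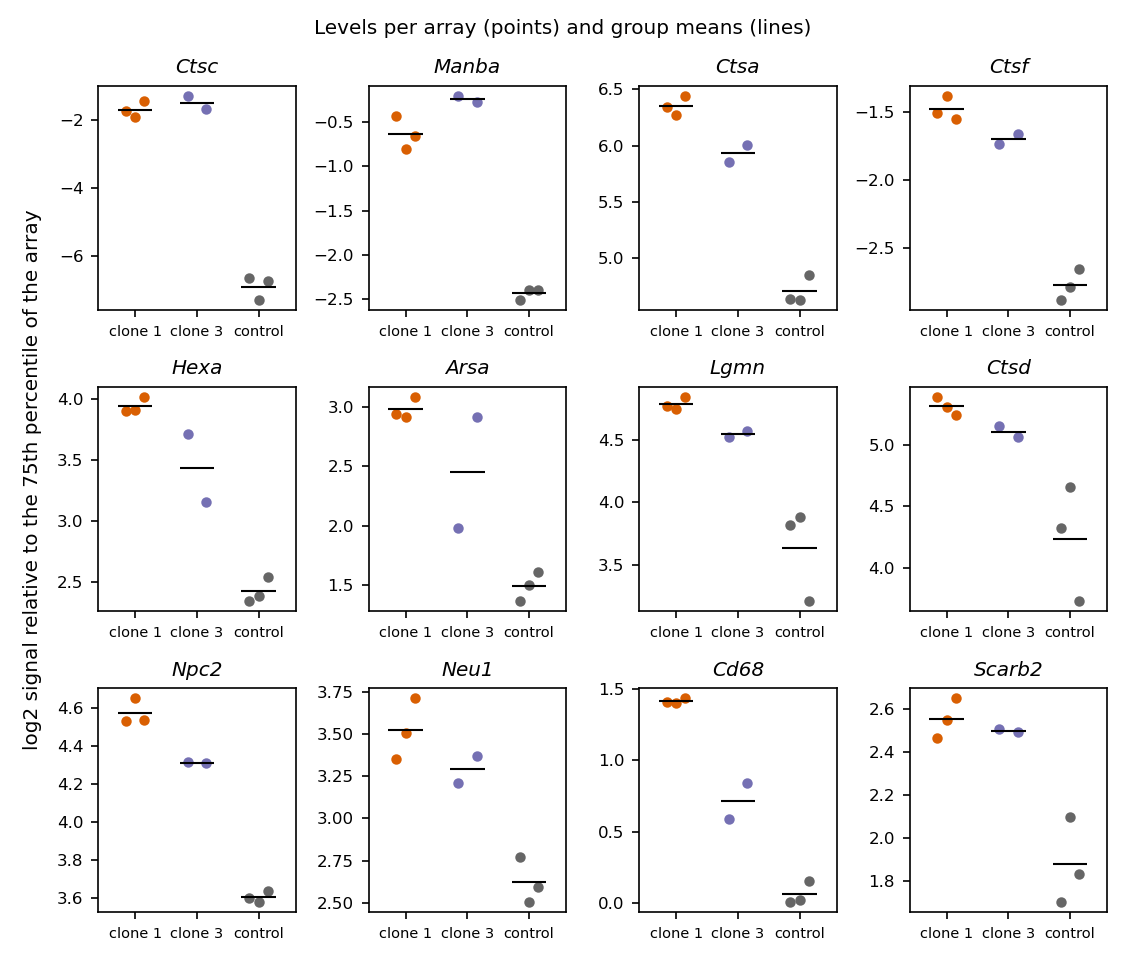
Level of the 12 genes called in both clones with the greatest fold changes, shown per array (points) with group means (lines), as log2 signal above or below the array's 75th percentile, with a separate axis for each gene. In every panel the knock-in points lie above the control points, and Arsa and Hexa have the widest gap between the 2 clone 3 arrays.

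Among the glycosidases, 5 of 8 were higher in clone 1 and 4 in both clones, beside 14.7% and 11.3% of all tested genes. None was lower. Manba encodes β-mannosidase, which removes the last mannose in the breakdown of N-linked glycans. It read -0.44, -0.80 and -0.66 in clone 1 and -0.21 and -0.27 in clone 3, against -2.51, -2.39 and -2.39 in the control. Clone 3 was the highest group and the controls were tightly grouped far below. Manba was 3.48-fold higher in clone 1 (log2 1.80, SE 0.12, limma adjusted p = 1.39e-05) and 4.57-fold higher in clone 3 (log2 2.19, SE 0.13, adjusted p = 1.04e-05).

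Hexa encodes the α subunit of β-hexosaminidase, which degrades GM2 ganglioside. Its level was 3.90, 3.91 and 4.01 in clone 1 and 3.71 and 3.16 in clone 3, against 2.35, 2.39 and 2.54 in the control. The clone 3 arrays differed from each other by more than the arrays of either other group, and both lay above all controls. Hexa rose by 1.52 (SE 0.15, limma adjusted p = 0.00014) and by 1.01 (SE 0.17, adjusted p = 0.00272). Neu1, the lysosomal sialidase, read 3.36, 3.51 and 3.71 in clone 1 and 3.21 and 3.37 in clone 3, against 2.77, 2.5 and 2.6 in the control. Its groups did not overlap with the controls, and the log2 fold changes were 0.90 (limma adjusted p = 0.00113) and 0.67 (adjusted p = 0.00959).

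Man2b1, the lysosomal α-mannosidase, rose by less, 0.42 in clone 1 and 0.49 in clone 3. Fuca1, an α-fucosidase, passed in clone 1 alone, at 0.44 with 0.43 in clone 3 (limma adjusted p = 0.062). Gaa, which degrades glycogen, Gla, the α-galactosidase of globotriaosylceramide, and Glb1, the β-galactosidase, passed in neither clone. Their log2 fold changes were 0.20, -0.02 and -0.13 in clone 1 and -0.13, -0.21 and -0.34 in clone 3. Of the enzymes that cathepsin A binds, Neu1 passed in both clones and Glb1 in neither, and the difference between these genes was not tested.

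Of the 5 enzymes of glycosaminoglycan breakdown, 1 passed in clone 1 and 0 in both clones (limma), beside 31.1% and 23.5% of all tested genes. At an unadjusted p under 0.05 there was 1 gene in each clone, beside 41.0% and 41.1% of all tested genes. With 5 genes, such counts are too small to set the enzymes apart from all tested genes. Naglu, an enzyme of heparan sulfate breakdown, was higher in clone 1 by 0.44 (limma adjusted p = 0.026), with 0.31 in clone 3. Gusb, Arsb, Sgsh and Idua ran from -0.18 to 0.05 in clone 1 and from -0.37 to 0.45 in clone 3. Over all 12 lysosomal genes that passed in neither clone, the 95% confidence intervals of the log2 fold change reached from -0.56 to 0.50 in clone 1 and from -0.69 to 0.96 in clone 3. These are the widest limits over the 12 genes.

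Lipid enzymes and lipid-handling proteins moved in both directions. Of 7, 5 were higher in clone 1 and 3 in both clones, while Lipa was lower in both. Over all tested genes 14.7% were higher in clone 1, 11.3% were higher in both clones and 12.2% were lower in both. Arsa encodes arylsulfatase A, which removes sulfate from sulfatide. It read 2.94, 2.92 and 3.08 in clone 1 and 1.99 and 2.92 in clone 3, against 1.37, 1.5 and 1.61 in the control. One clone 3 array was near the clone 1 level and the other near the controls, though still above them. Arsa rose by 1.49 in clone 1 (SE 0.22, limma adjusted p = 0.00113) and by 0.96 in clone 3 (SE 0.24, adjusted p = 0.0177).

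Npc2, which binds cholesterol in the lumen and hands it on for export, read 4.54, 4.65 and 4.54 in clone 1 and 4.31 and 4.31 in clone 3, against 3.6, 3.58 and 3.63 in the control. The arrays of each group lay close together and the groups were separate. The log2 fold changes were 0.97 (SE 0.09, limma adjusted p = 0.000122) and 0.71 (SE 0.11, adjusted p = 0.00153). Asah1, acid ceramidase, rose by 0.62 and 0.74. Psap, the precursor of the saposins, and Smpd1, acid sphingomyelinase, passed in clone 1 alone, at 0.47 and 0.35. Ppt1, which removes palmitate from proteins, passed in neither clone.

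Lipa encodes lysosomal acid lipase, which frees cholesterol and fatty acids from their esters. It read 1.40, 1.51 and 1.37 in clone 1 and 1.33 and 1.40 in clone 3, against 1.94, 2.09 and 2.09 in the control. All knock-in arrays lay below all controls, opposite to Npc2, which acts on the cholesterol that this lipase frees. Lipa fell by 0.61 in clone 1 (SE 0.10, limma adjusted p = 0.00235) and by 0.67 in clone 3 (SE 0.11, adjusted p = 0.00293).

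The membrane proteins were mixed as well. Of 7, Cd68 and Scarb2 were higher in both clones and Mcoln1 was lower in both. These are 28.6% and 14.3%, beside 11.3% and 12.2% of all tested genes. Lamp2 and Cd63 passed against the control in clone 1, at 0.43 and 0.42, and not in clone 3, at 0.29 and 0.16, and neither gene passed between the clones (limma adjusted p = 0.758 and 0.556). Cd68 encodes macrosialin, a late endosomal glycoprotein widely used to mark macrophages. It read 1.41, 1.41 and 1.44 in clone 1 and 0.59 and 0.84 in clone 3, against 0.00, 0.02 and 0.15 in the control. Clone 1 was highest and clone 3 lay between the other groups. The log2 fold changes were 1.36 (SE 0.11, limma adjusted p = 4.06e-05) and 0.66 (SE 0.12, adjusted p = 0.00443).

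Markers of other cell types were read beside this. Of 12 macrophage markers, 5 were tested and 0 passed in either clone by limma, beside 31.1% and 30.2% of all tested genes. At an unadjusted p under 0.05 there were 0 in clone 1 and 1 in clone 3, beside 41.0% and 41.1%. Csf1r, Itgam, Cd14, Fcer1g and Mpeg1 were well above background on all 8 arrays, with log2 fold changes from -0.28 to 0.17 in clone 1 and from -0.35 to 0.35 in clone 3. Adgre1, Fcgr1, Lyz2, Mrc1 and Tyrobp were not well above background on any array. The summed level of the 12 markers, on a linear scale in units of the array's 75th percentile signal, ran from 8.70 to 11.8 in clone 1 and 11.1 to 12.1 in clone 3, against 8.91 to 12.4 in the control. Fewer cells of a type and less RNA per cell cannot be told apart in such bulk RNA. Of 6 T cell markers 4 were tested. Of these Lck was higher in both clones, by 0.96 and 1.14 (25%, beside 11.3% of all tested genes). The summed T cell level was 5.59 to 6.60 in clone 1 and 5.60 to 6.59 in clone 3, against 3.90 to 4.55 in the control. Cd8a was at background on all arrays. Of 8 fibroblast markers 2 were tested. Of these Pdgfra was lower in both clones, at log2 fold changes of -1.30 and -1.83 (50%, beside 12.2% of all tested genes). The summed fibroblast level was 0.47 to 0.62 in clone 1 and 0.48 to 0.56 in clone 3, against 0.96 to 1.21 in the control. Pdgfrb, Dcn, Lum and Thy1 were at background. Col1a2 was well above background on all 8 arrays and did not pass, at -0.13 and 0.14. Of 4 endothelial markers only Pecam1 was tested, and it did not pass. Their part in the lysosomal results was not tested.

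The epithelial identity given by the labels was visible in part. Krt5, Krt8, Krt14, Krt18, Epcam, Cdh1, Trp63 and Foxn1 were well above background on all arrays, while Ccl21a and Psmb11 were not on any. Aire, the regulator that defines mature medullary cells, was above background on 2 of 3 clone 1 arrays, 0 of 2 clone 3 arrays and 1 of 3 control arrays. Of 10 tested markers, Cd80, Krt5, Epcam and Trp63 were lower in both clones and 0 were higher. The share lower was 40%, beside 12.2% of all tested genes. The summed level of the 13 epithelial markers was 317 to 363 in clone 1 and 337 to 376 in clone 3, against 367 to 481 in the control, and its part in the lysosomal results was not tested.

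Scarb2 encodes LIMP-2, the receptor that carries glucocerebrosidase to the lysosome. It read 2.47, 2.55 and 2.65 in clone 1 and 2.51 and 2.49 in clone 3, against 1.70, 2.10 and 1.83 in the control. Both clones lay at the same height above the controls. The log2 fold changes were 0.68 (SE 0.13, limma adjusted p = 0.00409) and 0.62 (SE 0.14, adjusted p = 0.0112). Mcoln1 encodes TRPML1, a cation channel that releases calcium from lysosomes. It read 3.02, 3.04 and 2.93 in clone 1 and 2.76 and 2.95 in clone 3, against 3.44, 3.45 and 3.50 in the control. Every knock-in array was below every control array, with log2 fold changes of -0.46 (SE 0.10, limma adjusted p = 0.00894) and -0.60 (SE 0.11, adjusted p = 0.00471). Its promoter carries CACGTG, as does that of Ctsd.

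Lamp1, one of the most abundant glycoproteins of the lysosomal membrane, read 6.54, 6.75 and 6.04 in clone 1 and 6.63 and 6.48 in clone 3, against 6.57, 6.60 and 6.52 in the control. The groups overlapped fully. The log2 fold change was -0.12 in clone 1 (95% confidence interval -0.52 to 0.28, limma adjusted p = 0.659) and -0.01 in clone 3 (-0.45 to 0.44, adjusted p = 0.983). Cln3, a membrane protein whose gene is mutated in human Batten disease, passed in neither clone, at 0.14 and 0.34.

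Neither regulator passed through its brightest probe. For Tfeb that probe maps to a predicted transcript model, and its 3 other probes, given below, map to curated transcripts. Tfeb, the transcription factor that drives many lysosomal genes, read -0.01, 0.01 and -0.14 in clone 1 and -0.02 and 0.31 in clone 3, against 0.08, 0.07 and 0.24 in the control. The clone 1 arrays lay just below the controls and the clone 3 arrays overlapped them. The log2 fold changes were -0.18 (limma adjusted p = 0.319) and 0.01 (adjusted p = 0.954). Grn encodes progranulin, a secreted and lysosomal glycoprotein, and it differed by 0.00 in both clones through its brightest probe.

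**Figure D3:**
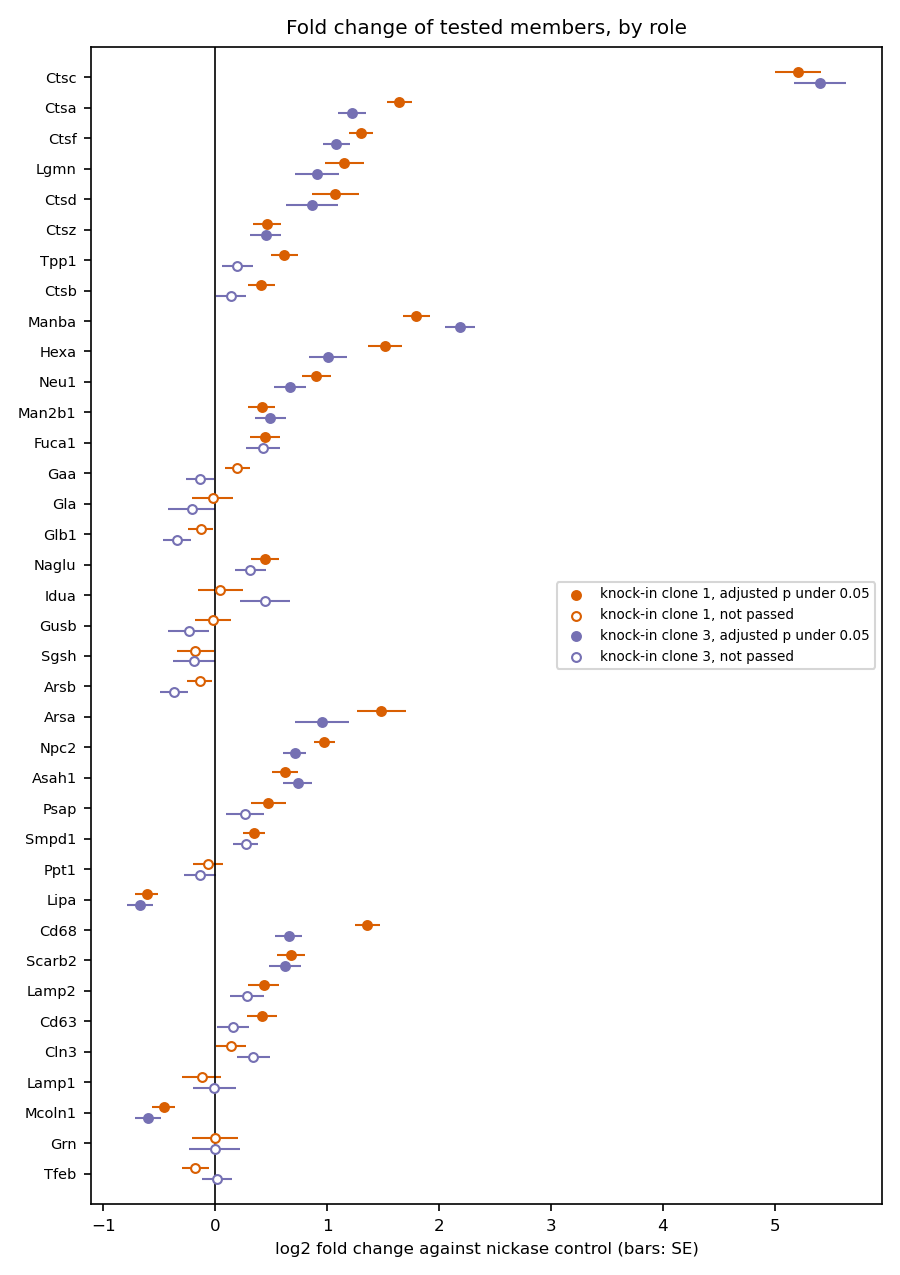
Log2 fold change of the 37 tested lysosomal genes in clone 1 and in clone 3 against the control, by role, with the standard error as a bar and filled points for adjusted p under 0.05. Ctsc lies farthest to the right, Lipa and Mcoln1 lie left of 0 in both clones, and of the 5 glycosaminoglycan enzymes only Naglu in clone 1 has a filled point.

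Several of these genes have more than 1 probe, and for 11 of them more than 1 could be tested. Testing each probe on its own was chosen after seeing the data. Asah1 and Cd68 passed in both clones through each of their probes, and the second Cd68 probe gave 1.87 and 1.15. For other genes the probes disagreed. Lamp2 is read by probes for different transcripts, and the second probe gave 1.25 in clone 1 (SE 0.11, limma adjusted p = 5.26e-05) and 0.95 in clone 3 (SE 0.12, adjusted p = 0.000599), against 0.43 and 0.29 through the brightest.

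The other 2 Grn probes gave 0.84 and 1.13 in clone 1 and 0.39 and 0.81 in clone 3, and the second of these passed in both clones (limma adjusted p = 0.000129 and 0.00178). One of the 3 other Tfeb probes gave 0.98 and 0.89 (limma adjusted p = 0.00668 and 0.0185). The remaining 2 Tfeb probes gave 0.316 and 0.235 in clone 1 and 0.173 and 0.194 in clone 3, and did not pass. A second Ppt1 probe gave 0.54 and 0.46 (limma adjusted p = 0.00679 and 0.0232). For 3 genes that passed in neither clone through the brightest probe, a second probe passed in 1 clone. Cln3 gave 0.57 in clone 1 (limma adjusted p = 0.0129), Arsb -0.48 in clone 1 (adjusted p = 0.0275) and Glb1 -0.39 in clone 3 (adjusted p = 0.048). Counting a gene if any of its probes passed in both clones gave 21 genes, and counting it only if all of its tested probes did gave 17. The calls for Lamp2, Grn, Tfeb, Ppt1, Cln3, Arsb and Glb1 depend on the probe.

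**Figure D4:**
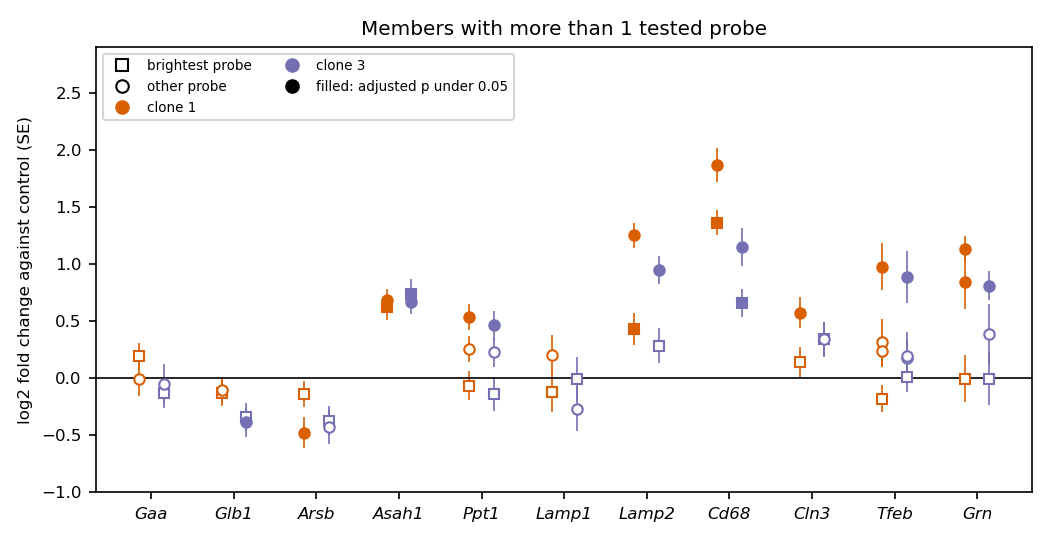
Log2 fold change against the control, with its standard error, of each tested probe of the 11 lysosomal genes with more than 1 tested probe, with squares for the brightest probe, circles for the others and filled symbols for adjusted p under 0.05. Probes of Asah1 lie together, while those of Lamp2, Tfeb and Grn are spread over a wide range.

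Clone 3 was compared directly with clone 1. None of the 37 lysosomal genes passed (limma), against 0.0749% of all tested genes (19 of 25353, with 0.0434% higher and 0.0316% lower), and 7 had an unadjusted p under 0.05: Ctsa, Tpp1, Gaa, Hexa, Manba, Npc2 and Cd68. An unadjusted p under 0.05 was found for 10.8% of all tested genes. The difference was below 0 for 28 genes and above 0 for 9, with a median of -0.15. It ran from -0.70 for Cd68 (95% confidence interval -0.98 to -0.43, limma adjusted p = 0.113) to 0.40 for Idua. Confidence intervals over the 37 genes reached from -1.08 to 0.91 at their widest. Cd68 passed under 2 alternatives: normexp background correction gave an adjusted p of 0.0434 and a robust variance trend gave 0.0341, and the range over 21 alternatives was 0.0341 to 0.687.

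Other lysosomal genes and their partners were read from lists of known genes. Among 34 tested hydrolases and cofactors outside the 40, 13 were higher and 3 lower in both clones, with medians of 0.40 and 0.33. These are 38.2% and 8.82%, beside 11.3% and 12.2% of all tested genes. Acp5, tartrate-resistant acid phosphatase, differed by 3.43 and 4.36, Ctsh, an aminopeptidase, by 4.47 and 4.48, and the sulfatase gene Arsg by 1.35 and 1.44. Ctsw was lower, with log2 fold changes of -1.45 and -1.40. Of 27 membrane proteins and carriers, 5 were higher and 3 lower in both (18.5% and 11.1%, beside 11.3% and 12.2% of all tested genes). Pip4p1, Sidt2 and Laptm4b were higher, at 0.98, 1.04 and 1.05 in clone 1 and 0.98, 0.98 and 0.82 in clone 3, and Spns1, a lysosomal transporter of lysophospholipids, was lower at -0.82 and -0.87.

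Transcripts of the proton pump that acidifies the lysosome were higher for part of its subunits. Of 17 tested, 8 were higher and 0 lower in both clones, and 9 did not pass in both. The share higher was 47.1%, beside 11.3% of all tested genes, with medians of 0.65 in clone 1 and 0.45 in clone 3. Atp6v0a2, Atp6v0e, Atp6v1b2, Atp6v1e1, Atp6v1f and Atp6ap1 passed in neither clone. Atp6v0e2 rose by 1.88 and 2.05, Atp6v1a, which holds the catalytic site, by 1.33 and 1.22, Atp6v0c, of the proton-carrying ring, by 1.20 and 0.93, and Atp6v1g1 by 0.75 and 0.75. Of 27 genes of sorting and delivery 10 were higher and 1 lower in both (37% and 3.7%, beside 11.3% and 12.2% of all tested genes). Vps29 and Vps35 of retromer rose by 0.97 and 0.69 in clone 1 and 0.91 and 0.79 in clone 3. Gnptg, a subunit of the enzyme that starts the mannose 6-phosphate tag, rose by 0.93 and 0.85, and Vps11 by 0.79 and 0.92. M6pr, a receptor for that tag, was the 1 lower gene, at -0.48 in each clone.

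Of 18 regulators and nutrient sensors 2 were higher in both clones (11.1%, beside 11.3% over all tested genes) and 0 were lower, with medians of 0.05 and -0.09. Mitf, a relative of Tfeb, rose by 1.1 in clone 1 (limma adjusted p = 0.00292) and by 0.88 in clone 3 (adjusted p = 0.0156), and Tsc2, an inhibitor of mTORC1 signalling, by 0.56 and 0.67. Tfe3, another relative, did not pass (-0.05 and -0.24), and Tfec was at background on all arrays. Of 3 tested cystatins, which inhibit cathepsins, Cst6 was higher by 1.31 and 1.76. Of 24 autophagosome genes 7 were higher and 0 lower in both (29.2% higher, beside 11.3% of all tested genes). Among them Map1lc3a stood at 1.60 and 1.47, Map1lc3b at 1.21 and 0.99, Gabarapl1 at 1.09 and 1.15 and Tecpr1 at 2.08 and 1.68.

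**Figure D5:**
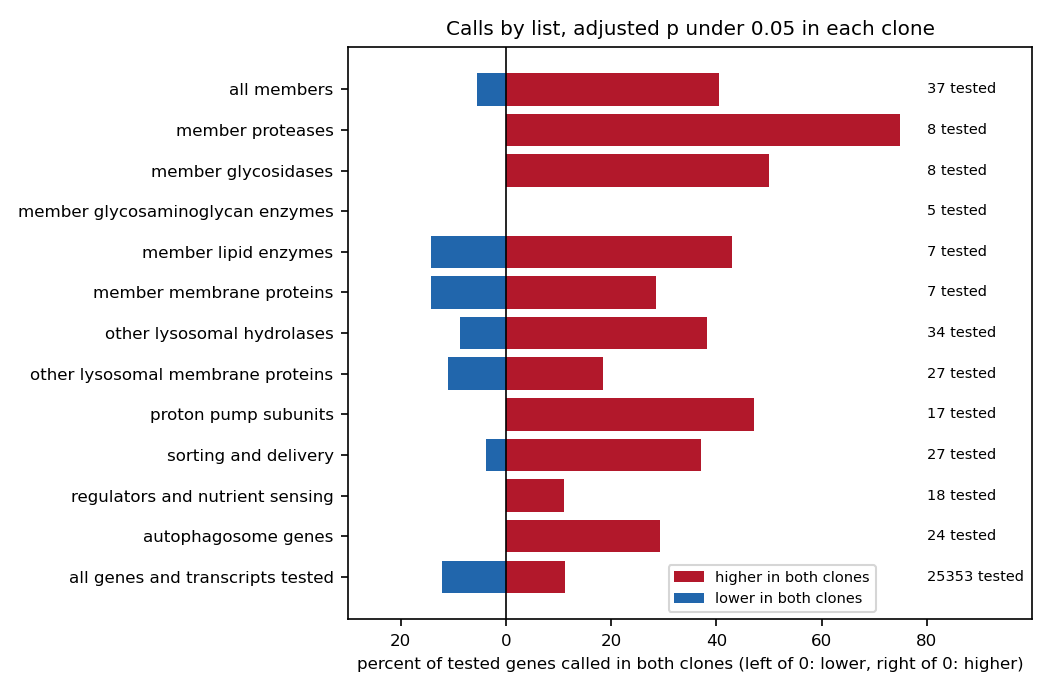
Share of tested genes that passed in both clones with the same sign, in percent, by list, with higher genes right of 0 and lower genes left of it and the number tested at the right; "members" are the 40 lysosomal genes followed here. Member proteases have the longest bar (75% of 8), member glycosaminoglycan enzymes have none, and all tested genes have 11.3% higher and 12.2% lower.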

How the data were processed

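For each spot the authors deposited a processed signal, which is a linear fluorescence intensity with background removed, as Agilent Feature Extraction output (version 11.5.11 per the submitters' processing notes, 11.5.1.1 per the file headers). All 8 arrays came from 1 slide and 1 scan. No column held another sample's values (0 columns). Of 62976 spots, 3671 control spots and 114 to 242 outliers on each array were dropped. The log2 signal minus the array's 75th percentile, taken over 56605 probes, was then averaged for each probe.

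Symbols came from RefSeq through transcript accessions (32994 probes). The brightest probe stood for a gene. Testing required that probe to be well above background on all arrays of 1 or more groups. limma 3.58.1 in R 4.3.3 fitted the 3 groups together (two-sided, 5 residual and 3.38 prior degrees of freedom), with Benjamini-Hochberg adjustment over all 25353 and a threshold of 0.05. The number of arrays limits the precision. The fit was tested on simulated data.

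Every lysosomal gene is accounted for. Values on each array are given for the 12 genes called in both clones with the largest smaller fold change, for Tfeb, Mcoln1, Lamp1 and Ctsd, for genes above background on part of the arrays only, and for Lipa, added after its values were seen. From other lists up to 4 genes called in both clones are named, by the same ranking. The genes and lists were chosen with earlier results of these data known. Alternatives covered background correction, scaling, filters, probe choice, the variance model, slide row, threshold and leaving out each array.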

Additional observations from a re-analysis of the deposited data

How the results depend on the processing

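No paired analysis was possible because the replicate numbers follow deposition order and are not given by the labels. The 17 genes called in both clones changed sign in 0 of 695 alternative values. They were picked by these calls, and for each of them every knock-in array lay on 1 side of every control array. Refits of the same levels, such as leaving out arrays, thus could not change a sign. The count of called lysosomal genes in clone 1, 25, was 16 without the detection filter, where 45616 features were tested. It was 16 at a threshold of 0.01 and 12 with slide row as a block. Over all tested features these fits called 5445, 4714 and 4349 in clone 1, against 7896 in the main fit. The count in clone 3, 17, was 4 with the row block, as was the count in both clones. Over all tested genes the row block called 2068 in clone 3, against 7669 in the main fit. Between clones the count of 0 was 1 with normexp and 1 with the robust trend. Leaving out 1 array at a time gave 17 to 22 genes in clone 1, 10 to 17 in clone 3, 10 to 16 in both and 0 to 0 between clones. Over all tested genes, leaving out a control or clone 1 array gave 6223 to 6742 calls in clone 1 and 6084 to 7464 in clone 3. With each array left out in turn, the lysosomal median log2 fold change was 0.37 to 0.46 in clone 1. It was 0.27 to 0.38 in clone 3 and -0.15 to -0.11 between clones. Over the other alternatives these medians were 0.36 to 0.47, 0.27 to 0.40 and -0.19 to -0.10. Median scaling moved the clone 1 calls to 18 higher and 2 lower. Over all tested genes it called 7070 in clone 1. Grn in clone 1, at -0.004 in the main fit, was 0.66 with the mean of all its probes (limma adjusted p = 0.00754). Its other probes were higher, and its adjusted p over the alternatives ran from 0.00754 to 0.996. A filter on all 8 arrays left out Ctsc. Over single genes, 2132 values stayed on their side of the threshold, 147 fell short of it and 11 newly passed. The cause of these shifts was otherwise not tested. Genes near background, such as Ctso, have no usable fold.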
